A study of Arabidopsis thaliana with 20 samples.

Results

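The comparison set 4 RNA-Seq libraries made after dawn (AM control) against 4 made after dusk (PM control), 8 of the 20 libraries of the series. They were chosen by their labels alone: unstressed Columbia-0 (Col-0) seedlings of Arabidopsis thaliana, mock treated at 23 °C. The rest were AM and PM seedlings exposed to 30 °C for 1 h, and single libraries of each kind from constant light. Col-0 is the standard laboratory wild type, and neither group carried a mutation or transgene. Both groups were two-week-old seedlings grown on agar plates in 12-h light/dark cycles. RNA came from aerial tissue according to the protocol, although the source label reads whole plant. The mock treatment of AM control began at zeitgeber time (ZT, hours after dawn) 0.5 and that of PM control at ZT 12.5, and tissue was frozen 1 h later. AM control plants were therefore in the light and PM control plants in the dark, and light and time of day cannot be told apart between these groups. The labels do not say whether the 4 replicates of a group were separate sowings, so that the p-values measure the spread between these libraries.

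The plant circadian clock is a network of transcription factors that repress or activate one another in turn through the day. The MYB factors CCA1 and LHY are made around dawn and repress evening genes. The pseudo-response regulators follow one another from morning to evening and repress CCA1 and LHY, and the evening complex of ELF3, ELF4 and LUX acts as a repressor at night. Through these factors, together with light itself, plants time light harvesting, starch use, flowering, growth and cold responses. Leaves store part of their photosynthate as starch by day and break it down to sugar by night.

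Between 14896808 and 25632892 reads per library fell on annotated loci in AM control (median 21471738), and between 14637914 and 27413957 in PM control (median 21503728). TMM scaling factors lay between 0.890 and 1.03 in AM control and between 1.12 and 1.27 in PM control. Levels below are CPM, in the order of replicates 1 to 4 where 4 values are given. For the 8 libraries, these are counts scaled by the library's total reads multiplied by its TMM factor. CPM totals therefore differ between libraries, and CPM are not plain fractions of the reads. Shares of reads, given in percent, do not carry the TMM factor. Differences are on the log2 scale, AM control minus PM control, so that a positive value is higher in AM control. In a principal component analysis of the 8 libraries the first component, with 64.7% of the variance, separated AM from PM control. The second, with 24.9%, separated replicates 1 and 2 from replicates 3 and 4 in both groups. The labels name no batch for these pairs of numbers, and values within each pair are given beside the results that they touch.

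Leaf transcripts were abundant in every library. The 6 leaf markers, Rubisco small subunits, Rubisco activase (RCA) and LHCB3, summed to between 52223 and 61395 CPM in AM control and between 26713 and 33745 CPM in PM control. The 8 root markers summed to between 69.9 and 84.8 CPM in AM control and between 42.3 and 85.8 CPM in PM control, and each of them had reads, in tissue described as aerial. Among the root markers, CASP2, a protein of the endodermal Casparian strip, was called higher in AM control, at a log2 difference of 0.74. In bulk RNA, fewer cells of a type and less RNA per cell cannot be told apart.

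Dawn and dusk transcriptomes differed in about equal numbers of genes each way, with the larger differences more often toward dawn. In all 21404 loci were tested, those with 10 or more reads in any of the 16 light/dark libraries, with edgeR's quasi-likelihood test, with the replicate number as a block. A gene was called at an adjusted p under 0.05 (Benjamini-Hochberg over the 21404 genes) and an absolute log2 difference over 0.5. By this rule 7433 genes (34.7%) were called, 3735 (17.5%) higher in AM control and 3698 (17.3%) higher in PM control. The median difference over all tested genes was -0.06. Among called genes the median size was 1.15 for those higher in AM control and 0.83 for those higher in PM control. Differences over 4-fold numbered 723 toward AM control and 307 toward PM control. Within replicates 1 and 2 and within replicates 3 and 4 the direction held for 3727 of the 3735 and for 3685 of the 3698. All 4 AM control values lay above all 4 PM control values for 2810 of the genes called higher in AM control, and the reverse held for 2307 of those called higher in PM control. Over all 21404 tested genes, called or not, these counts were 3276 and 3082. The genes were called on these same libraries, so that the counts of direction and overlap describe them and are no test.

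**Figure D1:**
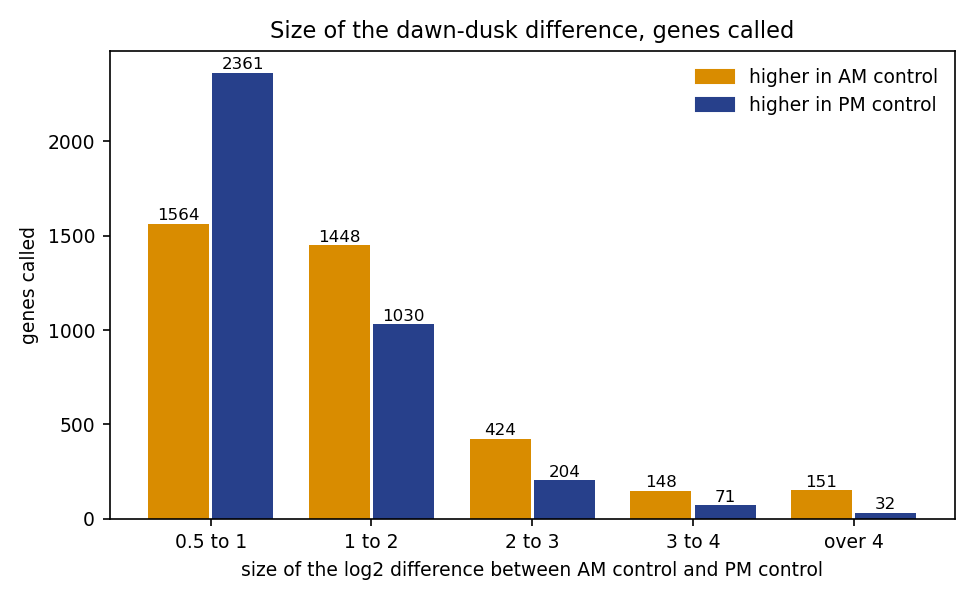
Number of genes called (vertical axis) by the size of the log2 difference between AM and PM control (horizontal axis), with bars for genes higher in AM control beside bars for genes higher in PM control. Genes higher in PM control were more numerous between 0.5 and 1 (1564 higher in AM control, 2361 higher in PM control), and genes higher in AM control were more numerous in each larger class, with 151 against 32 over 4.

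The bar chart of sizes shows where the directions parted. Small differences were more often toward dusk and large ones more often toward dawn. Genes called higher in AM control took 46.9, 45.1, 43.2 and 45.4% of the reads of tested genes in AM control libraries, against 19.2, 19.9, 18.9 and 19.1% in PM control libraries. Genes called higher in PM control took 8.72, 8.54, 9.05 and 8.53% in AM control libraries, against 22.2, 23.2, 20.6 and 21.8% in PM control libraries. These shares describe genes chosen on the same libraries and are no test. Transcripts higher in PM control thus held a smaller part of the dusk library than transcripts higher in AM control held of the dawn library.

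Morning clock genes were higher at dawn with 1 exception. Of 14 morning MYB factors and LNK co-activators, 13 were called higher in AM control and 1 higher in PM control. The shares over all genes were 17.5% and 17.3%. The median difference of the 14 was 5.61, beside -0.06 over all genes. Values of the groups were separate for all 14, as they were for 6358 of the 21404 tested genes. CCA1 (AT2G46830) had 327, 328, 258 and 306 CPM in AM control libraries, against 2.02, 1.53, 1.62 and 2.54 CPM in PM control libraries. LHY (AT1G01060) had 190.4, 190.0, 129.7 and 167 CPM in AM control, against 1.34, 0.588, 1.41 and 2.60 CPM in PM control. Every AM control library was high and every PM control library low for both genes, with differences of 7.33 (SE 0.24, adjusted p = 2.87e-11) for CCA1 and 6.91 (SE 0.31, adjusted p = 5.23e-10) for LHY. The LNK genes encode co-activators that join RVE8 on evening promoters. LNK2 had 714, 577, 915 and 1017 CPM in AM control, against 7.01, 5.22, 5.66 and 7.79 CPM in PM control, a difference of 6.94 (SE 0.20, adjusted p = 1.07e-11). LNK1, LNK3 and LNK4 differed by 7.13, 7.26 and 7.14. The REVEILLE factors are MYB relatives of CCA1. RVE8, an activator of evening genes, had 51.9, 52.6, 87.5 and 77.6 CPM in AM control and 2.21, 1.24, 5.30 and 6.13 CPM in PM control, at a log2 difference of 4.32. RVE1, which promotes auxin synthesis and growth, differed by 3.43 and RVE7 by 2.77, whereas RVE4 differed by 0.82 (SE 0.15, adjusted p = 3.69e-04). Closely related MYB genes without a described role here were also higher in AM control, ASG4 at a log2 difference of 7.67, AT5G52660 at 1.58 and AT4G01280 at 1.17. RVE2, also known as CIRCADIAN 1, was the exception. It had 14.1, 8.58, 19.6 and 16.2 CPM in AM control, against 211, 247, 229.8 and 266 CPM in PM control, a difference of -4.08 (SE 0.18, adjusted p = 3.93e-10), so that its highest dawn library was still below its lowest dusk library.

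Pseudo-response regulators split by their known order in the day. All 5 were called, 2 higher in AM control and 3 higher in PM control, beside 17.5% and 17.3% of all genes. PRR9 (AT2G46790), the earliest of the series, had 60.3, 57.7, 36.4 and 45.3 CPM in AM control and 0.506, 0.261, 0.121 and 0.276 CPM in PM control, a difference of 7.40 (SE 0.22, adjusted p = 1.07e-11). PRR7 followed with 108, 99.5, 89.7 and 123 CPM in AM control and 3.83, 5.84, 1.78 and 3.26 CPM in PM control, a log2 difference of 4.81 (SE 0.32, adjusted p = 2.92e-08). Both morning members were thus high in all 4 dawn libraries. PRR5 had 2.19, 2.08, 1.37 and 2.14 CPM in AM control, against 8.49, 12.6, 3.80 and 4.36 CPM in PM control, a log2 difference of -1.82 (SE 0.23, adjusted p = 2.09e-05). TOC1 (AT5G61380), the last of the series and a repressor of CCA1, had 11.3, 12.7, 9.86 and 11.8 CPM in AM control and 103, 109, 50.7 and 59.3 CPM in PM control, a difference of -2.80 (SE 0.25, adjusted p = 4.76e-07). The dusk libraries were all above the dawn libraries for both genes, and replicates 1 and 2 were higher than 3 and 4 at dusk. PRR3, which stabilises TOC1, differed by -3.59 between means of 0.550 ± 0.164 CPM in AM control and 6.87 ± 1.11 CPM in PM control (SD, n = 4 each).

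Most called genes of the evening clock list were higher at dusk. Of 11 evening clock genes, 2 were called higher in AM control and 6 higher in PM control, beside 17.5% and 17.3% of all genes. Their median was -1.88. The evening complex is built of ELF4, LUX and ELF3. ELF4 (AT2G40080) had 0.410, 0.654, 0.196 and 0.165 CPM in AM control, against 24.1, 20.8, 16.3 and 20.8 CPM in PM control, a log2 difference of -5.77 (SE 0.26, adjusted p = 4.37e-10). LUX, the DNA-binding subunit, had 5.11, 6.66, 9.01 and 8.03 CPM in AM control and 11.6, 17.5, 32.3 and 50.9 CPM in PM control, a log2 difference of -1.88 (SE 0.30, adjusted p = 1.64e-04). ELF3, the scaffold, had 12.7, 12.0, 12.5 and 10.7 CPM in AM control and 104, 103, 84.7 and 85.2 CPM in PM control, a log2 difference of -2.98 (SE 0.14, adjusted p = 6.30e-10). All subunits of the complex were thus higher at dusk with no overlap between groups, ELF4 by the widest margin. BOA, a close relative of LUX, differed by -5.30. JMJD5, a JmjC-domain protein that acts in the clock, had 2.05, 2.08, 3.20 and 2.69 CPM in AM control and 109, 140.1, 117 and 129.6 CPM in PM control, a log2 difference of -5.65 (SE 0.17, adjusted p = 1.12e-11). FKF1, a blue-light receptor that removes repressors of flowering, was nearly silent at dawn. It had 0.0456, 0.327, 0.196 and 0.110 CPM in AM control and 9.65, 10.8, 5.50 and 6.19 CPM in PM control, a log2 difference of -5.52 (SE 0.37, adjusted p = 3.24e-08). Its relatives ZTL and LKP2 were not called, at log2 differences of 0.42 and -0.07.

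GI (GIGANTEA), a partner of FKF1 and ZTL, and BBX19, a B-box protein that binds ELF3, went the other way. GI had 31.0, 37.0, 23.2 and 22.0 CPM in AM control, against 0.651, 2.55, 0.323 and 0.663 CPM in PM control, a log2 difference of 4.79 (SE 0.30, adjusted p = 1.56e-08), with PM control replicate 2 above the other dusk libraries. BBX19 had 28.9 ± 9.30 CPM in AM control and 1.27 ± 0.703 CPM in PM control (SD, n = 4 each), at a log2 difference of 4.56. CHE, a TCP factor that represses CCA1, was not called, at a log2 difference of 0.45. Downstream of the clock, the glycine-rich RNA-binding protein GRP7 regulates the splicing of its own transcript and that of GRP8. GRP7 (AT2G21660) had 37.8, 48.3, 64.3 and 58.0 CPM in AM control and 523, 761, 663 and 684 CPM in PM control, a log2 difference of -3.67 (SE 0.16, adjusted p = 4.83e-10). GRP8 was close to the fold change limit, with 115 ± 12.4 CPM in AM control and 163 ± 24.1 CPM in PM control (SD, n = 4 each), a log2 difference of -0.50 (SE 0.11, adjusted p = 0.00241). With single libraries or replicate numbers left out this lay between -0.64 and -0.40, on either side of the limit.

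**Figure D2:**
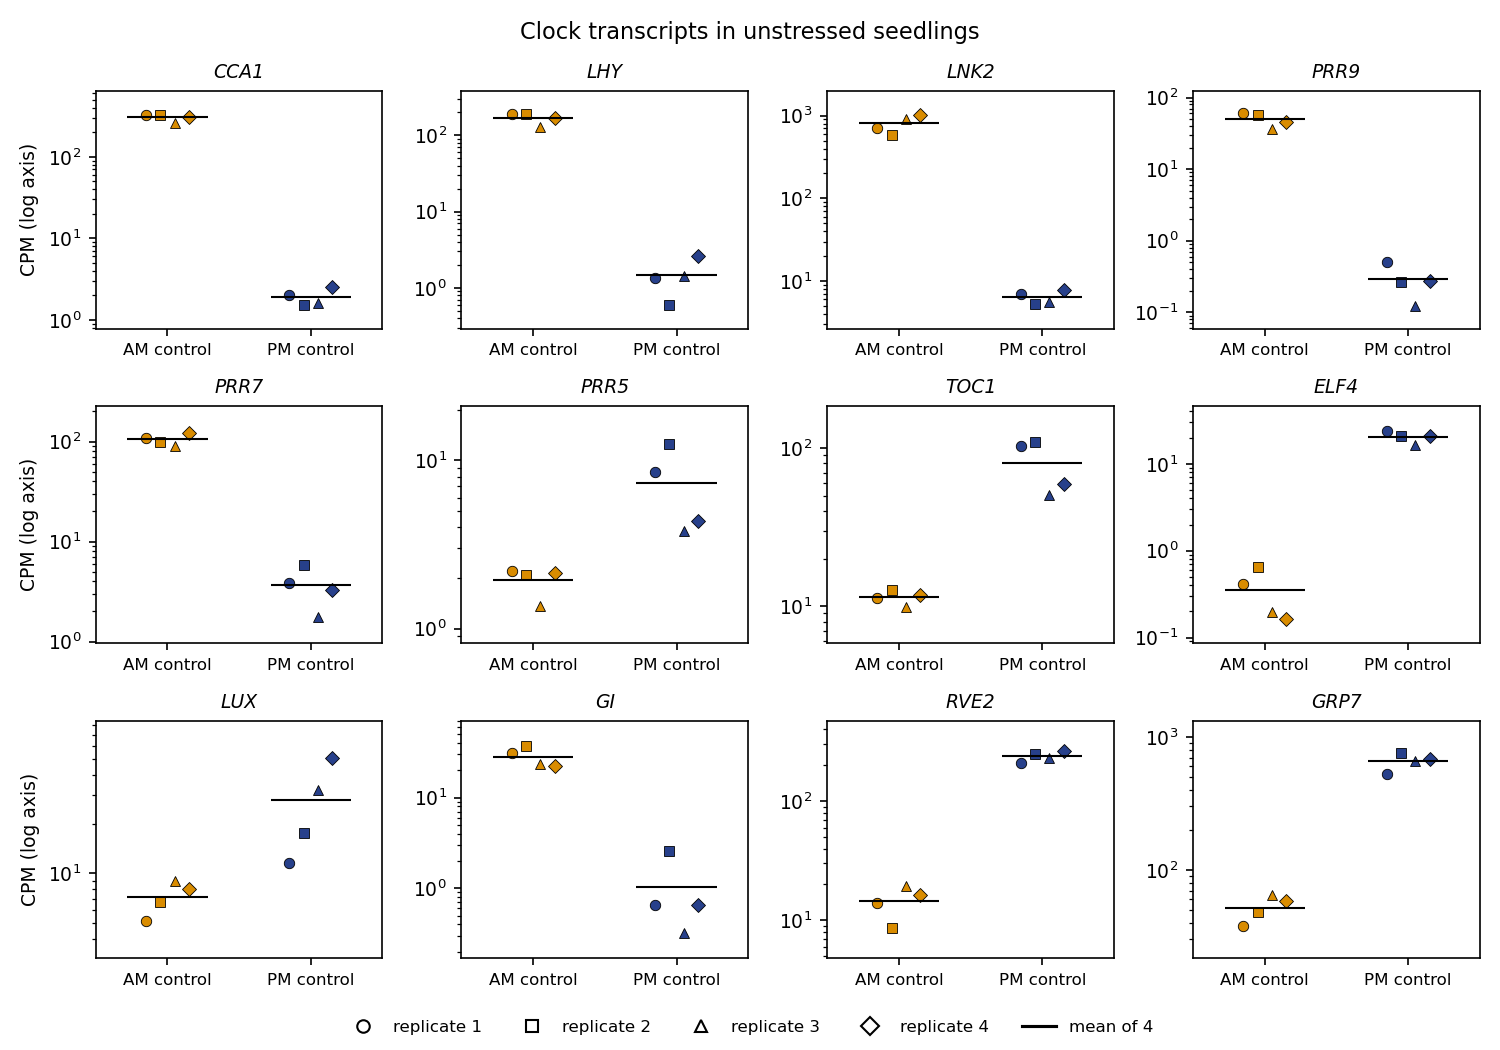
Levels of 12 clock transcripts in CPM (vertical log axes) in the 4 AM control and 4 PM control libraries; symbols mark the replicate number and lines the mean of 4. CCA1, LHY, LNK2, PRR9, PRR7 and GI were higher in every AM control library, with PRR9 at a mean of 49.9 against 0.291 CPM, and PRR5, TOC1, ELF4, LUX, RVE2 and GRP7 were higher in every PM control library.

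The evening element, AAAATATCT, is bound by CCA1, LHY and REVEILLE proteins, and the G-box, CACGTG, by light-regulated factors such as HY5 and the PIFs. The 300 bases before the annotated start of 3 genes higher in AM control and 2 higher in PM control are shown because they carry these letters near genes with large differences. They come from the RefSeq annotation of TAIR10.1 and are written 5′ to 3′ on the gene's strand. Evening elements (as AAAATATCT or its reverse complement, AGATATTTT) and G-boxes are in capitals. The windows are chr1:37872-38171 on the minus strand for LHY, chr2:19232307-19232606 on the plus strand for PRR9, chr3:10255606-10255905 on the plus strand for LHCB2.3, chr5:24674663-24674962 on the plus strand for TOC1 and chr1:25508339-25508638 on the plus strand for FKF1.
LHY: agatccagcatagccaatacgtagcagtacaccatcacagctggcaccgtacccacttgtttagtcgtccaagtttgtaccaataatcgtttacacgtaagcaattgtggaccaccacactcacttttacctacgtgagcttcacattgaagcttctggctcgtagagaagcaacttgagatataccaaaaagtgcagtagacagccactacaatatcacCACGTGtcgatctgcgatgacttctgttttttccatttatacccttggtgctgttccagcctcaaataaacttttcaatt
PRR9: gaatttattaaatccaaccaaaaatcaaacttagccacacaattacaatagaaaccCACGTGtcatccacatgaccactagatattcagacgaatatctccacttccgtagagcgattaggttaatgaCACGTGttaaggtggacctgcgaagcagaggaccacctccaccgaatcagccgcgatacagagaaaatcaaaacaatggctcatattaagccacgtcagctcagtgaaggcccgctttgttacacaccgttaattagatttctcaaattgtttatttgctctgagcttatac
LHCB2.3: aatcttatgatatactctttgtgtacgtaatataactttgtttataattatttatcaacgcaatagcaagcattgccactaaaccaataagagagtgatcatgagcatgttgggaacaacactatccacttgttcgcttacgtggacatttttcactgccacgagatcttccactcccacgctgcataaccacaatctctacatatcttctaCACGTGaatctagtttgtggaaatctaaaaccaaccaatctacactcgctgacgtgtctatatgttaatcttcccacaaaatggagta
TOC1: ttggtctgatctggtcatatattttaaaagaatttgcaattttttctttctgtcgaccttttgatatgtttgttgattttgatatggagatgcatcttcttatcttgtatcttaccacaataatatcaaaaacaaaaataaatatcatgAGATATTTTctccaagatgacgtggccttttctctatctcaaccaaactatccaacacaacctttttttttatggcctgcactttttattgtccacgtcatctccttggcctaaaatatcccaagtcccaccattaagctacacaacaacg
FKF1: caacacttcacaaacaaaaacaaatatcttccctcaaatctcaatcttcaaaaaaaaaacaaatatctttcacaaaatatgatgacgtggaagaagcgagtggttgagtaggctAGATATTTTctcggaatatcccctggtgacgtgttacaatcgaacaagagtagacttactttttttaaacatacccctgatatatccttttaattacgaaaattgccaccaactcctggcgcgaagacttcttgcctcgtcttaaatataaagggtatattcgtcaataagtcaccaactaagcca
The G-boxes lay from 80 to 75 bases before the start of LHY, from 244 to 239 and from 172 to 167 before that of PRR9, and from 88 to 83 before that of LHCB2.3. TOC1 carried an evening element from 151 to 143 bases before its start and FKF1 one from 186 to 178. The windows were picked, and their split of letters by time of day is no result. LUX, higher in PM control, carried both, an evening element from 53 to 45 and a G-box from 193 to 188. BBX24 and RVE7, higher in AM control, also held an evening element, and RVE2 and BOA, higher in PM control, a G-box. Over all genes, both strands of the 300 bases were searched. The evening element was found in 2.62% of 3705 promoters of genes higher in AM control, 4.55% of 3696 of genes higher in PM control and 2.84% of all 21266. Among genes over 4-fold higher in AM control it was found in 3.18%, and among those over 4-fold higher in PM control in 26 of 307 (8.47%). The G-box was found in 11.6% of promoters of genes higher in AM control, 6.66% of those of genes higher in PM control and 7.99% of all, and in 16.7% of those over 4-fold higher in AM control and 9.77% of those over 4-fold higher in PM control. Shares of a CCA1-binding site, AAAAATCT, lay closer together, at 8.37% for AM control, 7.98% for PM control and 7.82% for all. TBX, GGCCCA, was found in 11.6%, 18.8% and 17.0%, in the same order of sets, and in 8.58% of promoters over 4-fold higher in AM control and 9.12% of those over 4-fold higher in PM control. A match is a description of the letters, and no match was tested as a binding site.

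Flowering-time and B-box genes were also mostly higher at dawn. Of 9 photoperiod genes, 6 were called higher in AM control and 2 higher in PM control, beside 17.5% and 17.3% of all genes. Their median was 4.08. CYCLING DOF FACTORS repress CO in the morning. CDF3 had 109, 101, 70.9 and 77.7 CPM in AM control, against 0.506, 0.359, 0.243 and 0.83 CPM in PM control, a log2 difference of 7.59 (SE 0.22, adjusted p = 1.03e-11). CDF1 differed by 5.86, CDF2 by 4.08 and their relative AT1G69570 by 4.99, while AT2G34140 differed by -1.5. CO (CONSTANS), the activator of the florigen gene FT, had 0.182, 0.0817, 0.522 and 0.275 CPM in AM control and 4.16, 2.55, 9.62 and 6.46 CPM in PM control, a log2 difference of -4.41 (SE 0.37, adjusted p = 2.70e-07). It was low at both times but higher in each dusk library. Its relatives COL1 and COL2 differed by 3.99 and 6.48. FT itself was not called, with 0.481 ± 0.346 CPM in AM control and 0.206 ± 0.171 CPM in PM control (SD, n = 4 each).

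B-box (BBX) proteins are zinc finger factors, several of which work with or against HY5 in light responses. Of 14 tested, 10 were called higher in AM control and 2 higher in PM control, beside 17.5% and 17.3% of all genes. The median of 6.5 was the highest of the 25 lists. BBX16 had 193, 161, 125 and 159.5 CPM in AM control, against 0.651, 0.783, 0.485 and 1.22 CPM in PM control, a log2 difference of 7.70 (SE 0.27, adjusted p = 5.37e-11). BBX28, which limits HY5 activity, had 95.7, 81.9, 73.7 and 84.3 CPM in AM control and 0.289, 0.555, 0.566 and 0.552 CPM in PM control, a log2 difference of 7.43 (SE 0.22, adjusted p = 1.25e-11). BBX24, also known as STO, had 488, 413, 371 and 395 CPM in AM control and 9.11, 8.19, 5.46 and 9.83 CPM in PM control. Over the 4 dusk libraries BBX16 had 76 reads, BBX28 had 49 and BBX24 had 816. BBX32 had 7, with none in PM control replicates 1 and 3, so that its fitted difference of 7.77 depends on the prior count. BBX18, BBX25, BBX29, BBX30 and BBX31 differed by 6.69, 6.32, 6.78, 7.37 and 6.69. Over the dusk libraries BBX29 had 9 reads, BBX31 had 10 and BBX30 had 4, with none in 1 of them. The fitted differences of BBX29, BBX30 and BBX31 thus rest on few dusk reads, and that of BBX30 depends on the prior count. BBX20, which promotes photomorphogenesis, was the strongest exception, with 1.37, 1.55, 1.83 and 1.87 CPM in AM control, against 24.9, 23.599, 16.7 and 17.7 CPM in PM control, a log2 difference of -3.66 (SE 0.24, adjusted p = 2.30e-08). BBX21 was higher in PM control by a small margin, a log2 difference of -0.54 (SE 0.15, adjusted p = 0.00862), and fell short of the limit without AM control replicate 2 or 4 or PM control replicate 1 (between -0.50 and -0.45).

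Phytochrome-interacting factors (PIFs) are bHLH proteins that promote growth in darkness and are degraded in the light. Of 7 PIF genes and relatives, 5 were called, all higher in AM control, beside 17.5% of all genes. Their median was 1.28. PIF4 (AT2G43010) had 104, 67.8, 80.0 and 103 CPM in AM control, against 2.24, 3.23, 2.43 and 3.76 CPM in PM control, a log2 difference of 4.93 (SE 0.20, adjusted p = 2.39e-10). PIF5 had 204, 160.1, 148 and 192 CPM in AM control and 5.24, 7.15, 8.93 and 7.51 CPM in PM control, a log2 difference of 4.62 (SE 0.19, adjusted p = 1.96e-10). These growth-promoting members were high in every dawn library, and PIF7 and PIF1 differed less, at log2 differences of 2.37 and 1.28. HFR1, an inhibitor of PIFs, differed by 1.12. PIF3 and PIL1 were not called, at log2 differences of -0.11 and 0.16.

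Photoreceptor genes moved less than clock genes. Of 19 photoreceptor and light-signalling genes, 12 were called higher in AM control and 3 higher in PM control, beside 17.5% and 17.3% of all genes. Their median was 0.82. Among phytochromes, the red-light receptors, PHYB had a log2 difference of 0.78 and PHYE one of 1.07. PHYA, which accumulates in darkness, had a log2 difference of -0.70 and PHYD one of -0.58, and the values of both groups overlapped for PHYA, PHYB and PHYD. The call of PHYA was lost without the replicate block (adjusted p = 0.170) and without PM control replicate 2 (log2 difference -0.40, adjusted p = 0.101) or AM control replicate 2 or 3 (adjusted p = 0.0639 and 0.0603). The blue-light receptors CRY1, PHOT1 and PHOT2 had log2 differences of 0.82, 0.92 and 1.24, with overlap for CRY1 and PHOT1. UVR8, the UV-B receptor, was higher in PM control with a log2 difference of -0.68 (SE 0.10, adjusted p = 9.41e-05), whereas RUP2, which switches UVR8 off, had 27.6, 35.0, 19.1 and 23.4 CPM in AM control, against 2.96, 2.84, 1.54 and 1.66 CPM in PM control, at 3.54 (SE 0.20, adjusted p = 4.57e-09). COP1 and the SPA proteins form the ubiquitin ligase that removes HY5 in darkness. COP1 and all 4 SPA genes were called higher in AM control, between 0.51 for SPA2 and 1.97 for SPA1. SPA2 was close to the fold change limit, and its groups overlapped. HY5 itself was not called, with 21.0 ± 0.707 CPM in AM control and 20.8 ± 3.33 CPM in PM control (SD, n = 4 each), whereas its partner HYH had a log2 difference of 1.75 (SE 0.12, adjusted p = 2.89e-08).

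Light-harvesting genes, which encode the chlorophyll-binding antenna proteins of the photosystems, took a large share of the morning reads. Of 21, 19 were called, all higher in AM control, beside 17.5% of all genes. Their median was 3.76. Together they took 8.66, 6.71, 9.37 and 9.70% of the reads of tested genes in AM control libraries, against 0.639, 1.05, 1.43 and 1.46% in PM control libraries. The lowest dawn share was above the highest dusk share. LHCB2.3 (AT3G27690), with the largest difference of all named genes, had 2451, 1256, 1907 and 1832 CPM in AM control, against 10.4, 5.19, 6.55 and 9.67 CPM in PM control, a log2 difference of 7.88 (SE 0.27, adjusted p = 3.94e-11). LHCB2.1 and LHCB2.2 had log2 differences of 7.51 and 7.55, and LHCB1.1 one of 6.67. LHCB1 and LHCB2 copies are nearly identical, so that reads may be divided unevenly among them and values of single copies are uncertain. In the photosystem I antenna, LHCA1 had 5528 ± 888 CPM in AM control and 521 ± 129 CPM in PM control (SD, n = 4 each), a log2 difference of 3.42. LHCA4 had 7409 ± 1140.1 CPM in AM control and 349 ± 108 CPM in PM control (SD, n = 4 each), a log2 difference of 4.41. Not called were LHCA5, at a log2 difference of 0.21, and LHCB4.3, at 0.07. Early light-induced proteins bind chlorophyll under light stress. Of 6 of these and their relatives, 5 were called, all higher in AM control, beside 17.5% of all genes. ELIP1 had 37.4, 157, 42.8 and 55.8 CPM in AM control, against 0.976, 0.620, 1.58 and 1.49 CPM in PM control, a log2 difference of 5.76 (SE 0.45, adjusted p = 1.44e-07). ELIP2 had a log2 difference of 5.29, and SEP1, not called, at 0.15.

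Chlorophyll synthesis genes differed most at a few steps. Of 18 genes tested of 19, 9 were called higher in AM control and 2 higher in PM control, beside 17.5% and 17.3% of all genes. Their median was 0.54. CAO, chlorophyllide a oxygenase, makes chlorophyll b. It had 529, 416, 379 and 504 CPM in AM control, against 7.70, 8.49, 6.39 and 8.12 CPM in PM control, a log2 difference of 5.89 (SE 0.16, adjusted p = 1.03e-11). CHLH, a subunit of the magnesium chelatase that starts the chlorophyll branch, had 3528 ± 909 CPM in AM control and 249 ± 99.1 CPM in PM control (SD, n = 4 each), a log2 difference of 3.87 (SE 0.15, adjusted p = 1.12e-10). GUN4, which stimulates the chelatase, had a log2 difference of 3.80, the cyclase subunit CRD1 one of 3.70, and HEMA1, the first committed enzyme of tetrapyrrole synthesis, one of 3.54. In contrast, the other chelatase subunits CHLI2 and CHLD were not called, at log2 differences of 0.15 and 0.12, and CHLI1 was at 0.63. Higher in PM control were HEMA2, with a log2 difference of -1.21 (SE 0.18, adjusted p = 8.94e-05), and PORB, at -0.89 (SE 0.21, adjusted p = 0.00341). PORB and PORC are light-dependent protochlorophyllide reductases, and PORC had a log2 difference of 1.31.

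**Figure D3:**
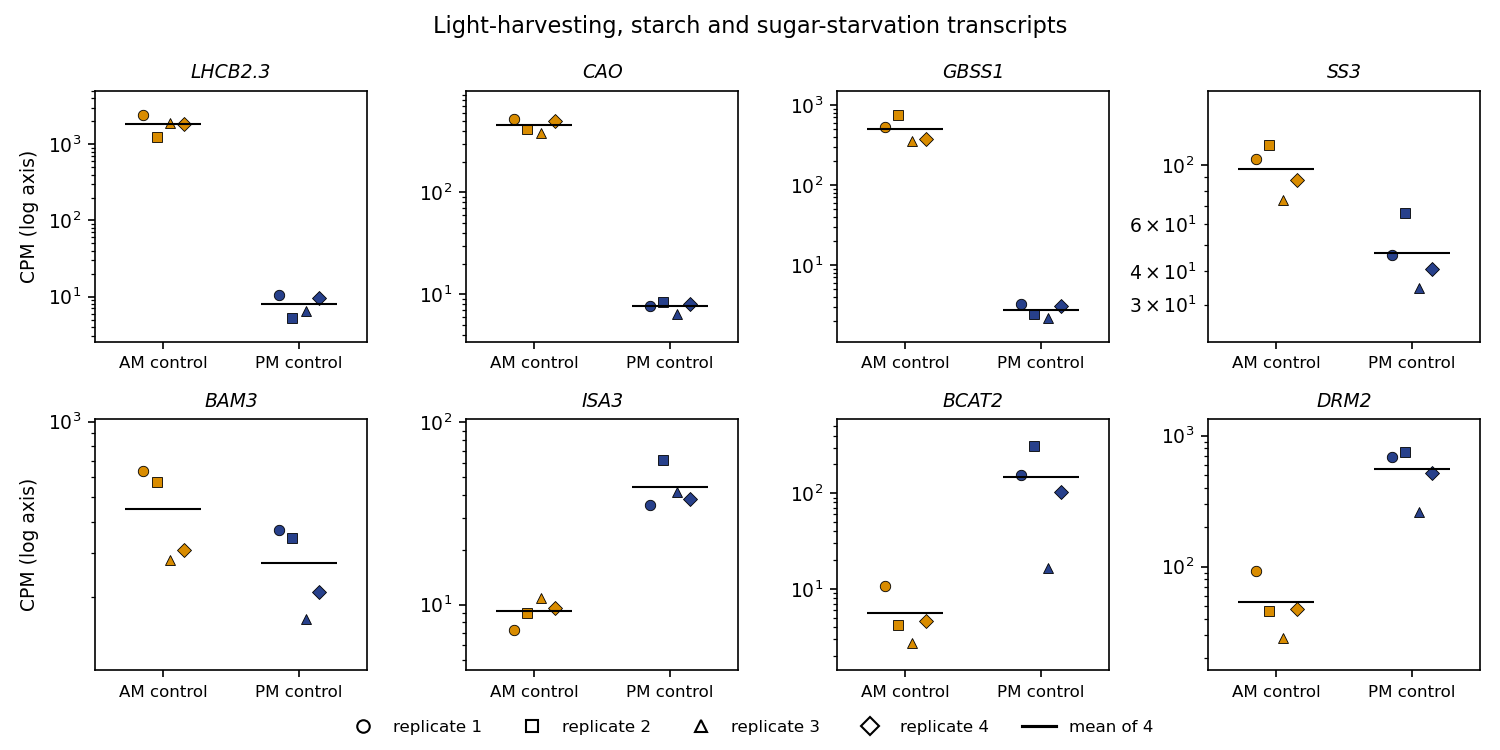
Levels of 8 light-harvesting, starch and sugar-starvation transcripts in CPM (vertical log axes) in the 4 AM control and 4 PM control libraries; symbols mark the replicate number and lines the mean of 4. LHCB2.3, CAO, GBSS1 and SS3 were higher in every AM control library, ISA3, BCAT2 and DRM2 were higher in every PM control library, and BAM3 overlapped, with replicates 3 and 4 low in both groups.

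Starch enzymes were divided between the times of day. Of 19 genes of starch breakdown, 6 were called higher in AM control and 9 higher in PM control, beside 17.5% and 17.3% of all genes. Their median was 0.00. The enzymes that open the granule at night were higher in PM control. GWD1 and PWD, the dikinases that phosphorylate starch, had log2 differences of -1.43 (SE 0.13, adjusted p = 1.00e-06) for GWD1 and -2.09 (SE 0.16, adjusted p = 1.42e-07) for PWD. SEX4, the phosphatase that removes these phosphates, had a log2 difference of -1.85. ISA3, a debranching enzyme, had 7.30, 9.03, 10.8 and 9.57 CPM in AM control, against 35.1, 62.3, 41.7 and 38 CPM in PM control, a log2 difference of -2.25 (SE 0.20, adjusted p = 6.91e-07). DPE1, the plastid disproportionating enzyme, and PHS2, the cytosolic phosphorylase, had log2 differences of -2.08 and -1.59. These genes were higher in all 4 dusk libraries. Genes of the beta-amylase family, whose active enzymes release maltose, went mostly the other way. BAM4 alone of them was called higher in PM control, at a log2 difference of -0.61, with overlap. BAM1 had a log2 difference of 1.86 and BAM9 one of 2.91 (SE 0.15, adjusted p = 1.85e-09). BAM3, the main leaf enzyme, had 637, 576, 281 and 308 CPM in AM control and 371, 344, 164 and 209 CPM in PM control. Its groups overlapped, with a log2 difference of 0.71 (SE 0.13, adjusted p = 4.67e-04), and the call was lost without the replicate block (adjusted p = 0.126). DPE2, PHS1 and AMY3 were not called, at log2 differences of 0.05, 0.00 and 0.02.

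Of 16 genes of starch synthesis, 8 were called higher in AM control and 3 higher in PM control, beside 17.5% and 17.3% of all genes. Their median was 0.59. GBSS1, the granule-bound synthase that makes amylose, had 532, 745, 349 and 375 CPM in AM control, against 3.25, 2.42, 2.18 and 3.04 CPM in PM control, a log2 difference of 7.49 (SE 0.25, adjusted p = 3.44e-11). Soluble synthases SS2 and SS3 had log2 differences of 2.24 and 1.05. APL3, a large subunit of ADP-glucose pyrophosphorylase, had a log2 difference of 2.12, whereas ADG1, its main small subunit, was not called, at 0.06. Higher in PM control were the branching enzyme SBE2.1, with a log2 difference of -1.37 (SE 0.13, adjusted p = 8.13e-07), SS4, at -0.99, and PGM1, at -0.97.

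Sugar-starvation and dark-induced genes were mostly higher at dusk. Of 19, 1 was called higher in AM control and 14 higher in PM control, beside 17.5% and 17.3% of all genes. Their median was -1.83. The values of the groups were separate for 8 of the 19, beside 6358 of 21404 over all genes. Their summed share of reads was 0.273, 0.127, 0.0744 and 0.104% in AM control libraries, against 1.1, 1.18, 0.264 and 0.458% in PM control libraries. AM control replicate 1 was thus above PM control replicate 3, and the dusk share was higher in replicates 1 and 2. BCAT2 (AT1G10070), which breaks down branched-chain amino acids, had 10.6, 4.21, 2.68 and 4.56 CPM in AM control, against 156, 312, 16.4 and 102 CPM in PM control, a log2 difference of -4.61 (SE 0.64, adjusted p = 4.05e-05). DRM2, a dormancy-associated protein, had 92.2, 45.9, 28.5 and 47.8 CPM in AM control and 693, 756, 261 and 519.9 CPM in PM control, a log2 difference of -3.42 (SE 0.36, adjusted p = 3.17e-06), and DRM1 was at -3.31. Both were higher in each dusk library than in any dawn library. DIN10, a raffinose synthase-like protein, had 572, 228, 45.8 and 76.2 CPM in AM control, against 2881, 2880.0, 533 and 732 CPM in PM control, a log2 difference of -3.12 (SE 0.45, adjusted p = 6.03e-05). SEN1 had 145, 64.8, 15.7 and 41.0 CPM in AM control and 863, 1048, 125 and 390.4 CPM in PM control, a log2 difference of -3.25 (SE 0.51, adjusted p = 1.21e-04). For these 2 genes AM control replicate 1 exceeded PM control replicate 3. ASN1, the dark-inducible asparagine synthetase, had a log2 difference of -2.14 (SE 0.66, adjusted p = 0.0164). Its call was lost without the replicate block (adjusted p = 0.0619), without PM control replicate 2 (log2 difference -1.32, adjusted p = 0.0803) and without AM control replicate 2 (adjusted p = 0.0628). GDH1, a glutamate dehydrogenase, had a log2 difference of -1.83 (SE 0.27, adjusted p = 7.91e-05). DIN9, a phosphomannose isomerase, was the exception with a log2 difference of 2.34 (SE 0.28, adjusted p = 1.20e-05). TPS8 and TPS11, of the trehalose-phosphate synthase family, were not called, at log2 differences of -0.05 and -0.11.

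Among nutrient genes, those of sulphate assimilation were called toward the morning. Of 10 genes of sulphate uptake and assimilation, 6 were called, all higher in AM control, beside 17.5% of all genes. Their median was 0.89. APS reductases set the rate of sulphate reduction. APR2 had 364, 553, 298 and 347 CPM in AM control, against 42.5, 31.9, 54.0 and 29.1 CPM in PM control, a log2 difference of 3.29 (SE 0.24, adjusted p = 6.49e-08). APR1 and APR3 had log2 differences of 3.07 and 2.38, and the sulphite reductase SIR was not called, at 0.10. Of 19 nitrogen genes, 6 were called higher in AM control and 3 higher in PM control, beside 17.5% and 17.3% of all genes, with a median of 0.20. AMT1.2, an ammonium transporter, had 283, 354, 173 and 178 CPM in AM control and 13.6, 10.2, 20.01 and 19.7 CPM in PM control, a log2 difference of 3.89 (SE 0.28, adjusted p = 6.49e-08). NIR1, the nitrite reductase, had a log2 difference of 1.02 (SE 0.18, adjusted p = 3.02e-04), and the nitrate reductases NIA1 and NIA2 were not called, at -0.13 and 0.75. AMT2 was higher in PM control with a log2 difference of -2.14 (SE 0.22, adjusted p = 2.60e-06). NRT1.8, a nitrate transporter, was also called higher in PM control, and PM control replicate 2 held most of its reads. It had 0.502, 1.27, 0.261 and 0.275 CPM in AM control and 1.19, 8.29, 1.13 and 1.55 CPM in PM control, and without that library the log2 difference was -1.69 (adjusted p = 0.0280).

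Flavonoid and phenylpropanoid genes, whose products absorb UV light and colour the plant, were higher in AM control as a group. Of 23 tested of 24, 20 were called higher in AM control and 1 higher in PM control, beside 17.5% and 17.3% of all genes. Their median was 1.76. PAL1, the entry enzyme, had 307, 476, 262 and 307 CPM in AM control, against 126, 56.0, 80.7 and 64.4 CPM in PM control, a log2 difference of 2.05 (SE 0.26, adjusted p = 1.53e-05). F3H, flavanone 3-hydroxylase, had 93.0, 200.3, 157 and 161 CPM in AM control and 21.3, 11.8, 19.0 and 19.9 CPM in PM control, a log2 difference of 3.07 (SE 0.26, adjusted p = 3.42e-07). CHS, chalcone synthase, overlapped between the groups, with 436, 884, 522 and 653 CPM in AM control and 439.7, 207, 150.5 and 167 CPM in PM control, a log2 difference of 1.43 (SE 0.31, adjusted p = 0.00174). PM control replicate 1 was its highest dusk library. LDOX, an anthocyanin enzyme, had a log2 difference of 2.94 (SE 0.37, adjusted p = 1.47e-05). Both activators and repressors differed, PAP1, a MYB activator of anthocyanin genes, with a log2 difference of 4.66 (SE 0.40, adjusted p = 3.35e-07) and MYBL2, a repressor, at 3.08 (SE 0.32, adjusted p = 2.25e-06). MYB111, an activator of flavonol genes, was the member higher in PM control, with a log2 difference of -1.33 (SE 0.30, adjusted p = 0.00236), while its relative MYB12 was not called, at 0.56.

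Growth genes were split. Of 15 genes of auxin synthesis and early auxin response, 8 were called, all higher in AM control, beside 17.5% of all genes. Their median was 0.83. IAA14 and IAA17, repressors of auxin response, had log2 differences of 2.69 (SE 0.17, adjusted p = 1.26e-08) for IAA14 and 2.09 (SE 0.13, adjusted p = 1.64e-08) for IAA17. YUC8, an auxin synthesis enzyme, had a log2 difference of 1.49 (SE 0.21, adjusted p = 5.10e-05), whereas IAA19 and IAA29 were not called, at 0.83 and 0.49. Among 20 cell wall genes, 8 were called in each direction, beside 17.5% of all genes toward AM control and 17.3% toward PM control. The median was 0.09. Expansins loosen the wall. Of these, EXPA8 had 179, 66.9, 61.8 and 108 CPM in AM control, against 8.68, 6.82, 13.5 and 14.5 CPM in PM control, a log2 difference of 3.17 (SE 0.45, adjusted p = 5.59e-05). EXPA1, EXPA3, EXPA5, EXPA10 and EXPA11 were also called higher in AM control, between 0.86 for EXPA10 and 1.53 for EXPA5. Xyloglucan endotransglucosylases (XTH) cut and rejoin wall polymers, and all 8 wall genes called higher in PM control were of this family. XTH15 had a log2 difference of -1.78 (SE 0.21, adjusted p = 1.06e-05) and XTH4 had 129 ± 50.2 CPM in AM control and 391 ± 128 CPM in PM control (SD, n = 4 each), one of -1.62 (SE 0.20, adjusted p = 1.30e-05). XTH7 and XTH17 were higher in AM control, at log2 differences of 1.32 and 1.2.

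Cold-responsive genes held the strongest evening transcripts of the named genes beside strong morning ones. Of 16 tested of 17, 8 were called higher in AM control and 4 higher in PM control, beside 17.5% and 17.3% of all genes. Their median was 0.85. COR27 (AT5G42900), a regulator of cold response and of the clock, had 0.456, 0.980, 0.392 and 0.495 CPM in AM control, against 64.2, 113, 45.8 and 85.5 CPM in PM control, a log2 difference of -6.98 (SE 0.26, adjusted p = 7.17e-11). AT4G33980, for which no role is given here, had 0.365, 0.123, 0.327 and 0.275 CPM in AM control and 38, 48.6, 18.7 and 34.2 CPM in PM control, a log2 difference of -7.01 (SE 0.43, adjusted p = 1.05e-08). Dawn libraries held less than 1 CPM of either. COR15B, which protects chloroplast membranes, had a log2 difference of -3.14 (SE 0.62, adjusted p = 8.62e-04), with overlap. In the other direction, RD29A had a log2 difference of 2.34 (SE 0.31, adjusted p = 2.95e-05) and COR413PM1, a membrane protein, one of 2.15 (SE 0.17, adjusted p = 1.32e-07). CBF3, a factor that switches on cold genes, had 0.365, 0.490, 1.37 and 1.15 CPM in AM control and 0, 0.0653, 0 and 0 CPM in PM control. GOLS3, a galactinol synthase under CBF control, had 1.14, 1.67, 2.22 and 1.87 CPM in AM control and 0, 0.131, 0 and 0 CPM in PM control. Both were called higher in AM control, but with reads in a single dusk library their fitted differences depend on the prior count and are not given.

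Heat shock genes were called about as often as genes in general. Of 23 tested of 24, 5 were called higher in AM control and 2 higher in PM control, beside 17.5% and 17.3% of all genes, with a median of 0.09. Replicates differed by pair. HSP90.1, a cytosolic chaperone, had 197, 146, 24.1 and 19.4 CPM in AM control, against 34.8, 29.8, 14.7 and 30.3 CPM in PM control. HSP70 (AT3G12580) had 501, 504, 70.8 and 69.2 CPM in AM control and 105, 71.7, 24.1 and 60.6 CPM in PM control. In both, dawn replicates 1 and 2 were high and dawn replicates 3 and 4 were near the dusk libraries. The difference of HSP90.1 was 2.41 in replicates 1 and 2 and -0.04 in replicates 3 and 4. A test of the pairs against each other gave a difference of 2.45 (adjusted p = 0.0147). For HSP70 this difference between pairs was 1.78 (adjusted p = 0.0725). The call of HSP90.1 was lost when AM control replicate 1 or 2 or PM control replicate 1 or 2 was left out (log2 difference between 0.92 and 1.09, adjusted p between 0.0617 and 0.0785). HSFB2A, a class B heat shock factor, was higher in AM control with a log2 difference of 1.37 (SE 0.18, adjusted p = 3.03e-05), and HSFA7A was higher in PM control at -1.84 (SE 0.24, adjusted p = 1.95e-05), both without overlap. HSP101 was not called, at a log2 difference of 0.81.

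**Figure D4:**
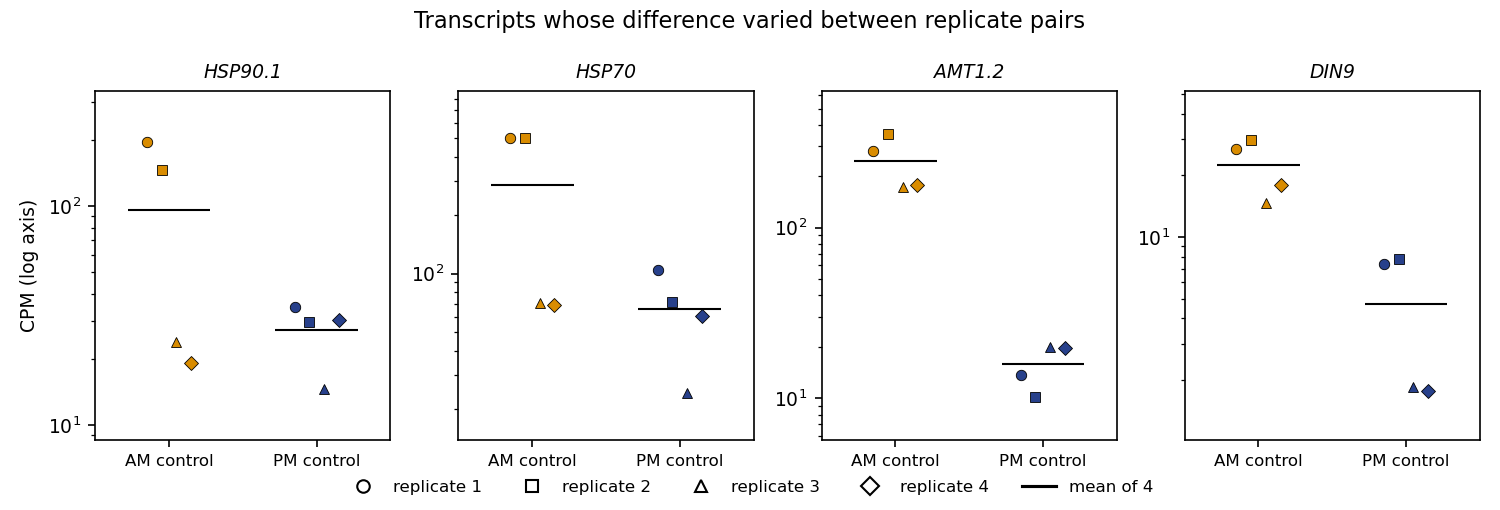
Levels of HSP90.1, HSP70, AMT1.2 and DIN9 in CPM (vertical log axes) in the 4 AM control and 4 PM control libraries; symbols mark the replicate number and lines the mean of 4. HSP90.1 and HSP70 were high in AM control replicates 1 and 2 alone, while AMT1.2 and DIN9 were higher in every AM control library by a margin that varied with the pair.

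In the test of the time-of-day difference between pairs of replicate numbers, 189 of 21404 genes (0.883%) passed an adjusted p of 0.05. It was chosen after the data were seen, and cannot show that the other genes did not vary. Of the 189, 118 were called genes, and 11 of these had opposite signs in the pairs. Within each pair alone, 7119 genes were called in replicates 1 and 2 and 6928 in replicates 3 and 4. Of these, 4648 were called the same way in both and 34 in opposite directions. AMT1.2 differed by 4.74 in replicates 1 and 2 and by 3.14 in replicates 3 and 4 (difference between pairs 1.6, adjusted p = 0.0148). DIN9 differed by 1.90 and 3.16 in the same order (difference -1.26, adjusted p = 0.0396). The plot of these genes by replicate shows that the direction of AMT1.2 and DIN9 held in each library.

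The share of cell cycle genes called was near that over all genes, 34.7%, and no direction is read from the jasmonate count. Of 20 jasmonate genes, 6 were called higher in AM control and 4 higher in PM control, beside 17.5% and 17.3% of all genes, with a median of 0.57. JAZ9, a repressor of jasmonate response, had a log2 difference of 1.59 (SE 0.18, adjusted p = 7.03e-06) and MYC2, the activator it binds, one of 1.4 (SE 0.18, adjusted p = 2.16e-05). AOC2, a jasmonate synthesis enzyme, had a log2 difference of -1.17 (SE 0.43, adjusted p = 0.0378), and its call was lost when any of AM control replicates 1, 2 and 3 or PM control replicates 3 and 4 was left out (adjusted p between 0.0669 and 0.176). Of 31 cell cycle and DNA replication genes, 7 were called higher in AM control and 4 higher in PM control, with a median of -0.26. MCM proteins unwind DNA for replication. MCM3 had a log2 difference of 0.93 (SE 0.25, adjusted p = 0.00726) and MCM7 one of 0.73 (SE 0.14, adjusted p = 6.95e-04), with MCM2 and MCM6 also called higher in AM control. The mitotic genes CYCB2.3 and CDKB2.2 were higher in PM control, at log2 differences of -0.77 and -0.72, with overlap, and their calls were lost without the replicate block (adjusted p = 0.0751 and 0.0574).

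**Figure D5:**
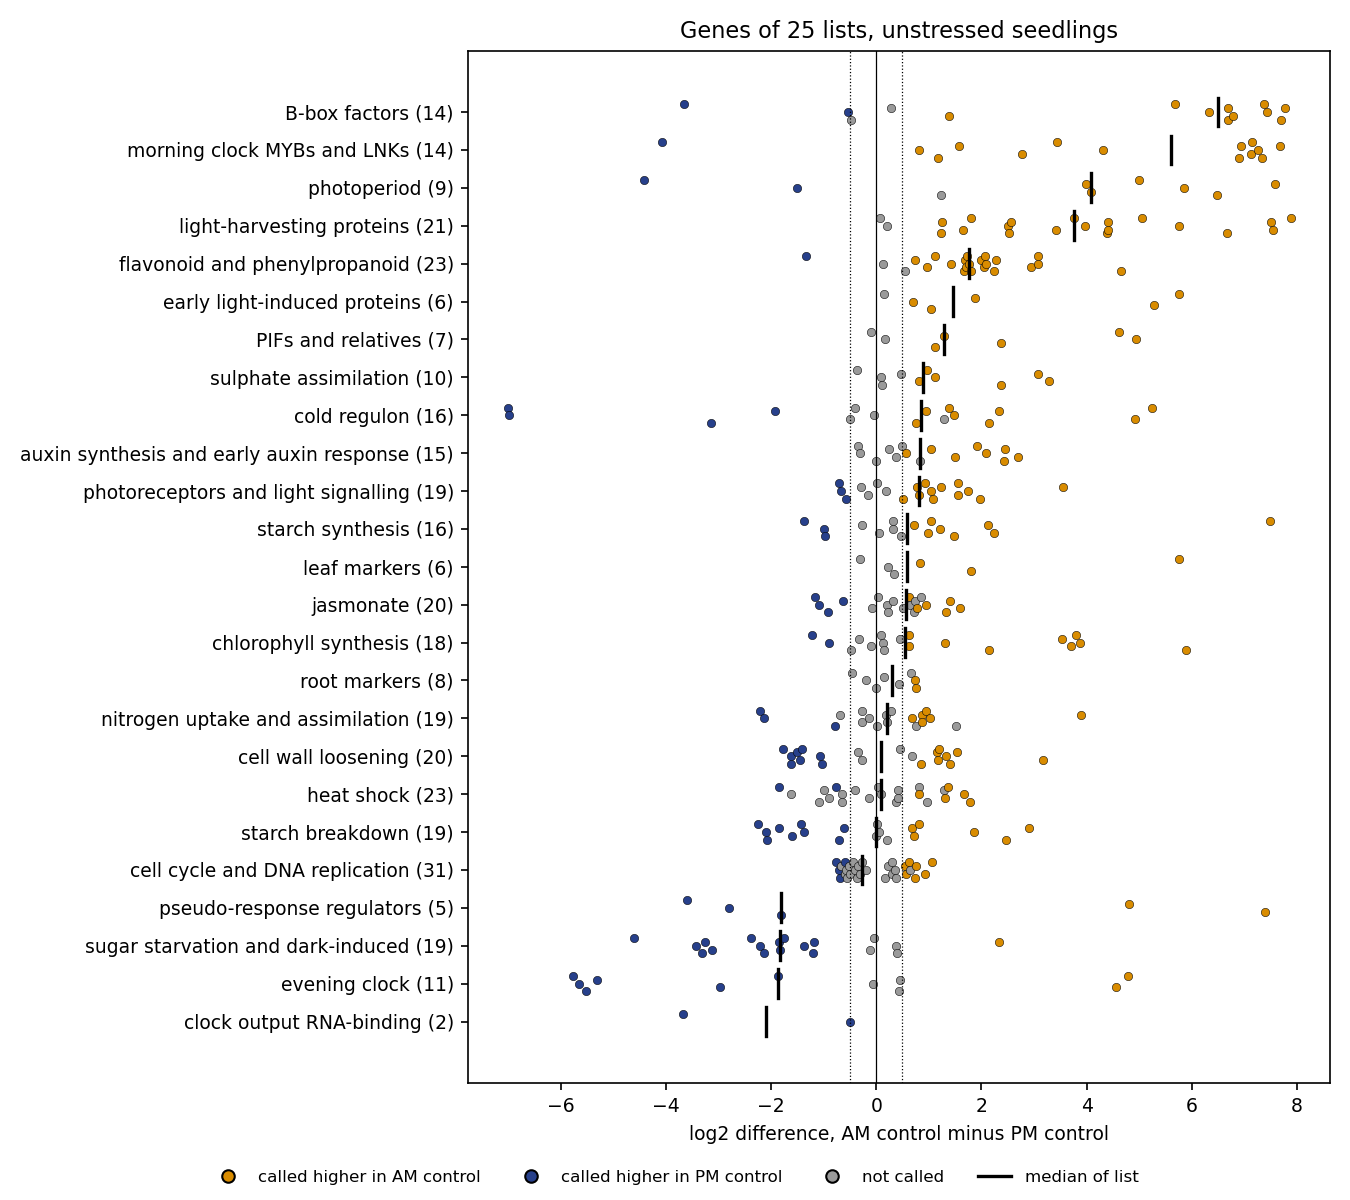
Log2 difference, AM control minus PM control (horizontal axis), of each tested gene of 25 lists (rows, with the number tested), coloured by call; vertical bars mark the median of each list and dotted lines the limits of -0.5 and 0.5. List medians ran down the rows from 6.5 for B-box factors to -2.09 for the 2 clock output RNA-binding genes, and evening clock and sugar-starvation genes lay mostly left of 0.

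The plot of the lists shows that most held genes of both directions. Among all genes, the 12 with the largest differences in each direction were taken from those without overlap and with at least 10 CPM in the higher group. Of the 12 toward AM control, LHCB2.1, LHCB2.2, LHCB2.3, BBX16, BBX28, BBX32, ASG4, CDF3, PRR9 and GBSS1 are given above. The others were AT2G27420, a cysteine proteinase, at a log2 difference of 7.72, and AT3G09450, annotated in the fusaric acid resistance family, at 7.63, with no read in PM control replicates 2 and 4. Of the 12 toward PM control, ELF4, JMJD5, BOA, COR27, AT4G33980 and BCAT2 are given above. AT5G23240, annotated with a DNAJ domain, had 1.92, 1.35, 0.914 and 1.04 CPM in AM control, against 158, 147, 72.9 and 74.7 CPM in PM control, a log2 difference of -6.40 (SE 0.23, adjusted p = 7.16e-11). COL9, a CONSTANS-like protein that delays flowering, had 2.60, 2.37, 2.02 and 2.25 CPM in AM control and 160.0, 201, 96.4 and 149.5 CPM in PM control, a log2 difference of -6.02 (SE 0.22, adjusted p = 7.73e-11). AT1G17665 had a log2 difference of -6.05 and AT1G15125, a predicted methyltransferase, one of -5.28. WCRKC1, a thioredoxin, had a log2 difference of -4.48 and AT5G62360, a predicted invertase or pectin methylesterase inhibitor, one of -4.58.

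In constant light, 1 AM and 1 PM control library give values with no replicate check. Of the genes called in light/dark cycles, 64.9% of those higher in AM control and 57.0% of those higher in PM control had the same sign there. Among genes not called, 47.7% were higher in the AM library, whatever their sign in light/dark cycles. The light/dark sign was shared by 13 of 14 called morning clock genes, all 12 called B-box genes, all 19 called light-harvesting genes and 14 of 15 called sugar-starvation genes. It was shared by 8 of 15 called starch breakdown genes, 7 of 16 called cell wall genes and 2 of 7 called heat shock genes. CCA1 had 372 CPM in the AM library and 44.8 CPM in the PM library. ELIP1 had 13.7 and 13.7 CPM, and GI 40.5 and 44.9 CPM, in the same order.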

How the data were processed

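RNA-Seq of 8 unstressed libraries (AM control and PM control, 4 replicates each) was compared. The labels gave each library its group and replicate number. The authors deposited unnormalized read counts for each locus, after alignment to TAIR10 by TopHat2 2.1.0 and counting by HTSeq 0.6.0 on the reverse strand. Selection on poly(A) leaves out most untailed transcripts, and reads that match several similar genes are undercounted. The depth of 14637914 to 27413957 reads per control library sets the counting error of low transcripts.

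From the counts, edgeR 4.0.16 in R 4.3.3 was used with TMM normalization and its quasi-likelihood test. The 4 light/dark groups (16 libraries, heat-treated ones included) were fitted together so that they share the estimate of spread, with the replicate number as a block, and AM control minus PM control was the contrast. Loci with 10 or more reads in any of these libraries were tested, and p was adjusted by Benjamini-Hochberg. Standard errors were worked back from the F statistic. The test was checked on simulated counts. Deviations from the group means correlated between AM and PM libraries of the same number with a mean r of 0.570 (0.508 to 0.692), over the 14951 genes that averaged 5 CPM or more. Between the other numbers of the same pair (1 and 2, 3 and 4) the mean r was 0.577, and across pairs it was -0.573. Libraries of the same number were thus no closer than others of the same pair. Replicates of a group differed by more than sampling noise, with dispersion indices between 11.2 and 140, where sampling alone gives about 1.

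Genes were named by this rule: all members of the clock, photoperiod and PIF lists, the most changed called member of each other list in each direction, members whose role is explained, and the 12 genes with the largest difference in each direction. The members and the 25 lists (375 entries) were chosen with earlier results of these data known. Promoters came from the RefSeq annotation of TAIR10.1, in which 21267 of the tested loci were matched. Of the list entries, 357 had their written symbol in it, and the others are given by locus or reference symbol, without a role. Alternatives were DESeq2 1.42.0, RLE and upper-quartile scaling, other filters, thresholds and designs, and leaving out libraries. Heat responses were not analysed here, and some items are not reported here.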

Additional observations from a re-analysis of the deposited data

Results flagged for a closer look

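In 16 of 332 groups of 4 values (4.82%) the highest or lowest library stood apart from the other 3. The cut used gives about 1 in 20 for independent, normally spread values, which these CPM were not shown to be. The share is therefore no test of chance. The 16 groups are given as values in CPM. In AM control, RVE1 was low in replicate 2 (65.1, others 108 to 116) and PRR5 low in replicate 3 (1.37, others 2.08 to 2.19). High there were BBX32 in replicate 3 (21.9, others 14.2 to 14.5), WCRKC1 in replicate 1 (6.84, others 2.86 to 3.41), ELIP1 in replicate 2 (157, others 37.4 to 55.8) and MCM3 in replicate 2 (17.0, others 9.80 to 10.2). In PM control, BBX28 was low in replicate 1 (0.289, others 0.552 to 0.566). High in PM control replicate 2 were GI (2.55, others 0.323 to 0.663), LHCB1.1 (301, others 39.2 to 73.3) and NRT1.8 (8.29, others 1.13 to 1.55). GOLS3 (0.131) and CBF3 (0.0653) were detected in that library alone of the dusk libraries. AT2G34140 was high in PM control replicate 4 (4.09, others 2.13 to 2.39), APR3 and LDOX in replicate 3 (63.5, others 26.8 to 29.8, for APR3, and 5.66, others 2.93 to 3.36, for LDOX) and IAA17 in replicate 1 (27.5, others 18.6 to 19.9).

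For 3 named genes the log2 difference between AM and PM control in replicates 1 and 2 was not that in replicates 3 and 4, by a test of the pair term with edgeR. HSP90.1 differed between the pairs by 2.45 (adjusted p = 0.0147), AMT1.2 by 1.6 (adjusted p = 0.0148) and DIN9 by -1.26 (adjusted p = 0.0396). What the pairs of numbers stand for is not given in the labels.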

How the results depend on the processing

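The 7433 calls kept to within 1.5 times that number under most settings, and none was called in the opposite direction under any of these settings. Calls within the pairs of replicate numbers are given above and are not among them. Testing against the fold change limit with glmTreat gave 4180 genes (2456 higher in AM control, 1724 higher in PM control) and a log2 limit of 1 gave 3508 (2171 and 1337). Without the replicate block 6143 genes were called, 6105 of them among the 7433. With the pair of replicate numbers as the block in its place, 7504 were called, 7345 of them among the 7433. The 8 control libraries alone gave 7035 with the replicate block and 5129 without it, and DESeq2 gave 7416. Leaving out replicate numbers gave 6281 to 7408 genes and leaving out single libraries 6818 to 7494. Of 166 named genes, 156 were called, and 137 kept the call under every setting. Without the replicate block, 6 lost it, among them ASN1, BAM3, CDKB2.2, CYCB2.3 and PHYA. Leaving out libraries turned the sign of 3 genes that were not called, with log2 differences between -0.0907 and 0.112 for HY5, between -0.23 and 0.12 for LKP2 and between -0.12 and 0.41 for PIL1. CHE and ZTL passed the limit without some libraries, with up to 0.59 and 0.55. Transcripts under 1 CPM rest on few reads.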

Other observations

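Gene families grouped by words in their RefSeq product names, chosen after the data were seen, are described here by counts. Of 352 loci named as ribosomal proteins, 3 were called higher in AM control and 89 (25.3%) higher in PM control. Their median log2 difference was -0.34. Among the 3 was AT1G68660, whose product name also reads as a Clp protease adaptor. Proteasome subunits also lay toward dusk, with 21 of 38 (55.3%) called higher in PM control and a median of -0.53. PBD2, a beta subunit, had 24.4 ± 2.88 CPM in AM control and 53.0 ± 4.16 CPM in PM control (SD, n = 4 each). Pentatricopeptide repeat proteins, which process organelle RNA, had 16 of 242 called higher in AM control and 50 (20.7%) higher in PM control. Their median was -0.44 in replicates 1 and 2 and -0.05 in replicates 3 and 4. The background over all genes was 17.5% called higher in AM control and 17.3% higher in PM control.

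Toward dawn, 26 of 35 photosystem subunits other than antenna proteins (74.3%) were called higher in AM control, with a median log2 difference of 1.01. PSAD-2, a photosystem I subunit, had 983 ± 204 CPM in AM control and 67.6 ± 8.49 CPM in PM control (SD, n = 4 each). Of 183 cytochrome P450 genes, 80 (43.7%) were called higher in AM control and 16 (8.74%) higher in PM control. CYP79F1, an enzyme of glucosinolate synthesis, had 56.1 ± 10.14 CPM in AM control and 0.958 ± 0.313 CPM in PM control. Of 31 aquaporins, 10 (32.3%) were called, all higher in AM control. PIP2A, a water channel of the plasma membrane, had 1903 ± 279 CPM in AM control and 245 ± 89.8 CPM in PM control. Of 62 SAUR-like growth genes, 27 (43.5%) were called higher in AM control and 12 (19.4%) higher in PM control, with a median log2 difference of 0.48. WRKY factors were at the background, with 9 of 56 (16.1%) called in each direction.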
